A study of Macaca mulatta with 12 samples.

Results

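LPL, which encodes lipoprotein lipase, and CD36, which encodes a cell-surface fatty acid translocase and scavenger receptor, were followed in the rhesus macaque corpus luteum as it lost function. They are 2 of 14132 genes named on the array. Every probe set annotated to exactly 1 of these symbols was taken, 4 for LPL and 1 for CD36, of 52707 tested probe sets. Both genes were selected on their higher level in late regressed than in mid-late corpora lutea, so that contrast is given here as a description with no test. The other contrasts share arrays with it, so their tests are not independent of the selection.

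The corpus luteum develops from the follicle after ovulation and is the main source of progesterone in the luteal phase. Glands came from female rhesus macaques in natural, untreated cycles and were removed by laparotomy, flash frozen and profiled whole, 1 gland to an array. The 12 arrays form 3 groups of 4 biological replicates, as the labels call them. Mid-late glands were collected on days 10 to 12 after the LH surge and are the baseline. Late functional and late regressed glands were both collected on days 14 to 16, and were told apart by serum progesterone, above 1.5 ng/ml in the former and below 0.5 ng/ml in the latter. Regression is thus defined by progesterone and not by time, and the sources used here give no ages or scan batches. Values are the deposited log2 signals, and a difference of 1 is a doubling.

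Lipoprotein lipase is secreted, carried to the capillary surface by GPIHBP1, and splits the triglyceride of circulating lipoproteins into fatty acids. CD36 then helps long-chain fatty acids enter cells, where binding proteins of the FABP family and acyl-CoA synthetases take them on to storage or oxidation. Macrophages and adipocytes make much lipoprotein lipase, and CD36 is found on macrophages, platelets, adipocytes and the endothelium of small vessels. In the corpus luteum lipoproteins are best known as the source of cholesterol for progesterone synthesis.

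Late regressed arrays 2 and 3 stood apart from the other 10. They had the lowest mean level of the 10 measured steroidogenic luteal cell markers (7.97 and 7.83, against 9.57 and 9.06 on late regressed arrays 1 and 4 and 9.64 to 10.42 in the other groups). Array 2 also had the largest excess of 3′ over 5′ signal of the beta-actin and GAPDH controls, a measure of RNA quality, at 2.52 against 0.46 to 0.70 on the other late regressed arrays. No 2 arrays were identical, and pairwise correlations ran from 0.946 to 0.995. Precision is limited by the number of arrays. In a limma fit of all 12 arrays with Benjamini-Hochberg adjustment, called meaning an adjusted p below 0.05, 10.0% of probe sets were called between late regressed and mid-late arrays. That share was 0.892% between late functional and mid-late arrays and 0.00190%, or 1 probe set, between late regressed and late functional arrays (6244 had an unadjusted p below 0.05). Of the calls between late regressed and mid-late arrays, 54.0% were higher in late regressed arrays, which became 67.6% with arrays centred on their medians and 45.4% with quantile normalization repeated. For late functional against mid-late arrays the share was 37.2%, with 56.2% and 25.2% under those scalings.

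LPL was low in mid-late glands and much higher in a pair of late regressed glands. On its brightest probe set, MmuSTS.386.1.S1_at, the mid-late arrays read 5.03, 5.67, 5.93 and 5.63 (mean 5.57 ± 0.38, SD, n = 4). Late functional arrays read 6.14, 6.41, 5.96 and 6.91 (6.36 ± 0.42, SD, n = 4). Late regressed arrays 1 to 4 read 6.96, 10.65, 10.77 and 6.81 (8.80 ± 2.21, SD, n = 4). Arrays 2 and 3 therefore lay 33.9-fold and 36.8-fold above the mid-late mean, and arrays 1 and 4 lay 2.62-fold and 2.37-fold above it. All 4 late regressed arrays lay above all 4 mid-late arrays, and 3 of them lay above every late functional array. Every late regressed array lay above every mid-late array for 7.99% of all tested probe sets. Levels of RNA in whole glands cannot tell more cells that hold a transcript from more transcript per cell.

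The difference in LPL between late regressed and mid-late group means was 3.23 (SE 0.82), or 9.38-fold. Without late regressed arrays 2 and 3 it was 1.32. A further fit took in as a term the mean of the 674 low-signal probe sets with the prefix NC, of unstated target. It gave 1.12 (SE 1.35). The NC mean was 3.65 to 3.75 on mid-late, 3.53 to 3.61 on late functional and 3.48 to 3.58 on late regressed arrays. That term is thus nearly confounded with mid-late against late glands, and the fit separates them poorly. Late functional arrays exceeded mid-late arrays by 0.79 (95% interval -0.997 to 2.58), which did not pass the limma test (adjusted p = 0.642). It turned to -0.99 (SE 1.21) with that NC term. The interval uses 1 estimate of spread shared by 3 groups, which includes the wide late regressed spread (SD 2.21). With only late functional and mid-late arrays fitted, the SE was 0.23 in place of 0.82 (limma adjusted p = 0.0718). The groups still did not overlap, the lowest late functional value being 5.96 and the highest mid-late value 5.93. Such a separation occurred in 7.68% of tested probe sets. Late regressed arrays exceeded late functional arrays by 2.44, or 5.43-fold (95% interval 0.65 to 4.23), and this did not pass after adjustment over all probe sets (limma adjusted p = 0.286). The order of the means was mid-late, late functional, late regressed, and neighbours in that order were not separated by the adjusted test.

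The 4 LPL probe sets did not report the same size of difference. MmugDNA.10451.1.S1_at followed the brightest one closely, with 4.67, 5.06, 5.53 and 4.94 in mid-late arrays, 5.52, 5.43, 5.35 and 6.07 in late functional arrays and 5.89, 9.43, 10.29 and 6.24 in late regressed arrays. Its late regressed arrays also all lay above its mid-late arrays, with arrays 2 and 3 far above the rest. Its difference between late regressed and mid-late means was 2.91 (SE 0.82), or 7.52-fold, and its correlation with the brightest probe set was 0.94 over the 10 arrays other than late regressed arrays 2 and 3. Its other differences were 0.54 for late functional minus mid-late arrays (limma adjusted p = 0.763) and 2.37 for late regressed minus late functional arrays (limma adjusted p = 0.299).

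MmugDNA.25504.1.S1_at read 5.94, 5.33, 5.67 and 5.76 in mid-late arrays, 5.96, 5.99, 5.90 and 6.29 in late functional arrays and 5.85, 6.75, 6.66 and 6.07 in late regressed arrays. Arrays 2 and 3 were again the highest, but the groups overlapped and the difference between late regressed and mid-late means was 0.66 (SE 0.20). MmugDNA.6198.1.S1_at showed no such pattern, with 5.41, 5.40, 5.76 and 5.73 in mid-late arrays, 5.64, 5.67, 5.72 and 5.81 in late functional arrays and 5.67, 5.66, 5.94 and 5.42 in late regressed arrays. Its difference between late regressed and mid-late means was 0.10 (SE 0.12), and all 3 groups overlapped. For these probe sets in turn, the limma adjusted p was 0.359 and 0.558 for late functional against mid-late arrays and 0.624 and 0.954 for late regressed against late functional arrays. Where in the transcript each probe set lies was not analysed here.

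**Figure D1:**
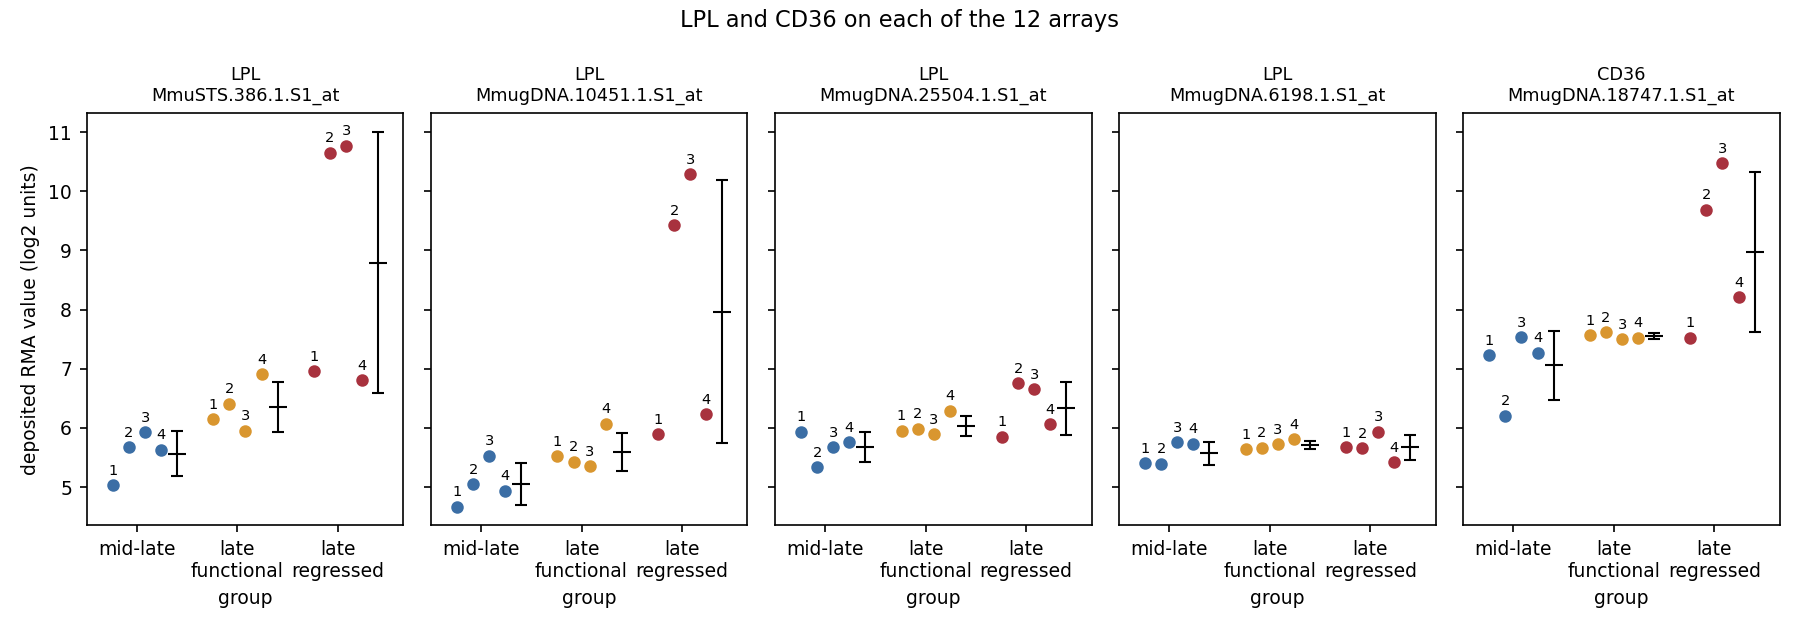
Deposited log2 signal (y axis) of the 4 LPL probe sets and the CD36 probe set on each of the 12 arrays, by group (x axis), with bars for the group mean and SD of 4 arrays. Late regressed arrays 2 and 3 read 10.65 and 10.77 on the brightest LPL probe set and 9.69 and 10.48 on the CD36 probe set, above every other array, while LPL probe set MmugDNA.6198.1.S1_at stayed between 5.40 and 5.94 on all 12 arrays.

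CD36 showed the same pair of high glands from a higher starting level. Its probe set, MmugDNA.18747.1.S1_at, read 7.23, 6.21, 7.53 and 7.27 in mid-late arrays (7.06 ± 0.59, SD, n = 4). Late functional arrays lay close together at 7.57, 7.62, 7.503 and 7.52 (7.55 ± 0.05, SD, n = 4). Late regressed arrays 1 to 4 read 7.53, 9.69, 10.48 and 8.21 (8.98 ± 1.35, SD, n = 4). Arrays 2 and 3 lay 6.18-fold and 10.7-fold above the mid-late mean and array 4 lay 2.22-fold above it. Late regressed array 1 lay just below the highest mid-late array, so 3 of 4 late regressed arrays lay above every mid-late array and 3 of 4 above every late functional array.

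For CD36 the late regressed mean exceeded the mid-late mean by 1.92 (SE 0.53), or 3.77-fold. The difference was 0.81 without late regressed arrays 2 and 3 and 0.54 (SE 0.87) with the NC term. Late functional arrays exceeded mid-late arrays by 0.49, or 1.41-fold (95% interval -0.66 to 1.65), with overlapping values and no call (limma adjusted p = 0.655). The difference turned to -0.67 (SE 0.78) with the NC term. With only these 2 groups fitted, its SE was 0.24 in place of 0.53 (limma adjusted p = 0.229). Late regressed arrays exceeded late functional arrays by 1.42, or 2.68-fold (95% interval 0.27 to 2.58), again with no call (limma adjusted p = 0.329). Neither gene therefore had a called difference between glands of the same days with high and with low progesterone, a contrast in which every late regressed array lay above every late functional array for 2.33% of probe sets. These intervals include large differences and do not show that the genes stayed level.

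LPL and CD36 were high on the same 2 arrays. Over the 10 arrays other than late regressed arrays 2 and 3, Pearson's r between the brightest LPL probe set and CD36 was 0.55, given as a description. These 2 arrays were the top 2 of 12 in 4824 probe sets, or 9.15% of those tested, and lay at least 1 log2 unit above the other 10 in 294, or 0.558%. The gap between the lower of the 2 and the highest other array was 3.69 for the brightest LPL probe set, the second largest of all, 3.19 for MmugDNA.10451.1.S1_at and 1.48 for CD36. It was 0.37 for MmugDNA.25504.1.S1_at and was -0.15 for MmugDNA.6198.1.S1_at, which these arrays did not lead. Both genes were selected on high late regressed values, which include these arrays, so the gaps and the rank are descriptions only.

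**Figure D2:**
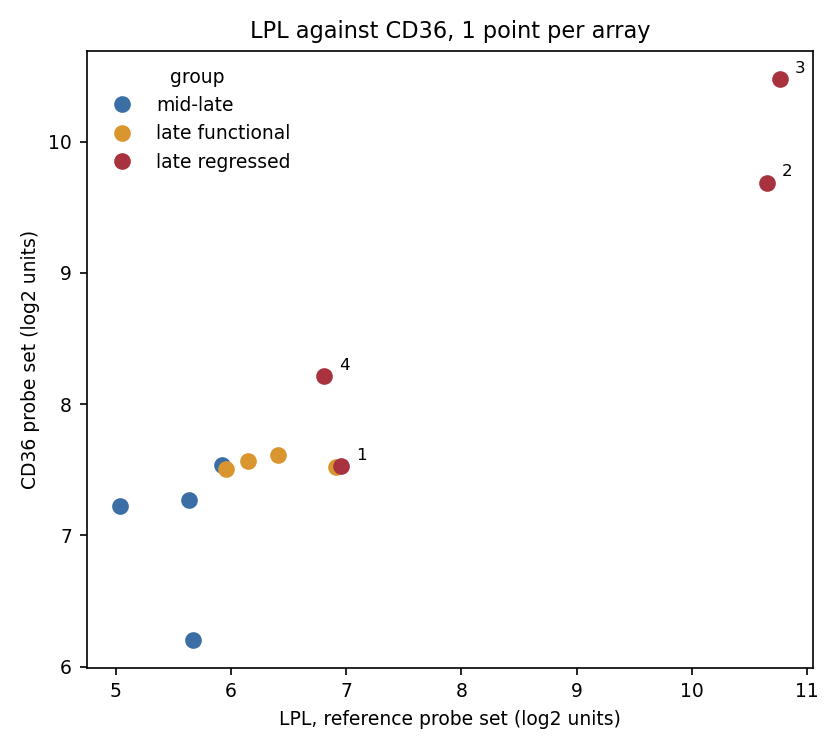
Log2 signal of the brightest LPL probe set (x axis) against CD36 (y axis), 1 point for each of the 12 arrays, coloured by group. Late regressed arrays 2 and 3 lie far from the other 10, at LPL 10.65 and 10.77, while late regressed arrays 1 and 4 lie at LPL 6.96 and 6.81 and CD36 7.53 and 8.21.

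The genes that assemble, anchor and inhibit lipoprotein lipase did not move as 1 group. This and the other gene lists were chosen with earlier results of these data known, so counts of called members are not independent of the data. Of 21 listed, 11 were measured. Between late regressed and mid-late arrays 3 rose, 2 fell and 6 were not called, with a median difference of -0.18 against -0.02 over all 12993 genes. Over all those genes, 7.87% were called higher and 5.56% lower. Without late regressed arrays 2 and 3, 2 rose and 1 fell.

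The member with the largest rise was SDC1, syndecan 1, a cell-surface heparan sulfate proteoglycan that binds lipoproteins. It read 8.21, 8.06, 8.22 and 8.10 in mid-late arrays, 8.82, 8.79, 9.30 and 10.25 in late functional arrays and 9.48, 10.71, 10.58 and 11.02 in late regressed arrays. All late regressed arrays lay above all mid-late arrays, and array 4, where LPL was at 6.81, was the highest for SDC1. The difference was 2.30 (SE 0.35, limma adjusted p = 0.00742) and 2.10 without late regressed arrays 2 and 3 (limma adjusted p = 0.0431).

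GPIHBP1, which holds lipoprotein lipase on the capillary wall, rose by 1.30 (SE 0.37, limma adjusted p = 0.0463). Its late regressed arrays read 6.33, 6.84, 7.26 and 6.95, all above the highest mid-late array at 6.07, and late functional array 4 was the highest of all at 7.69. That call stood on a narrow margin: it was lost in 10 of the 12 fits that left out 1 array, kept only without late regressed array 1 or late functional array 4, with an adjusted p from 0.0107 to 0.115. FURIN, a protease that cleaves lipoprotein lipase and its inhibitors, rose by 0.48 (limma adjusted p = 0.022), and LMF2, a relative of the lipase maturation factor LMF1, fell by 0.66 (limma adjusted p = 0.0159). The FURIN call was lost without mid-late array 2 or 3 (highest adjusted p 0.0557). The other fall, in APOA5 (-0.33), lay near the level of the low-signal NC probe sets, whose 95th percentile was 4.75, and was called in 7 of 12 such fits.

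ANGPTL4, a secreted inhibitor of lipoprotein lipase, was lowest on the arrays where LPL was highest. It read 9.61, 10.48, 10.38 and 10.36 in mid-late arrays, 10.82, 10.57, 10.47 and 10.25 in late functional arrays and 10.22, 8.03, 8.32 and 9.74 in late regressed arrays. Its difference between late regressed and mid-late means was -1.13 (SE 0.42), and neither this (limma adjusted p = 0.101) nor that between late regressed and late functional means, -1.45 (limma adjusted p = 0.244), was called. Both were called in the fit without late regressed array 1 (adjusted p = 0.0205 and 0.0358). LMF1, which folds the enzyme, was likewise lowest on late regressed arrays 2 and 3, at 9.11 and 8.999 against 9.72 to 10.21 on the other 10, with a difference of -0.31 (limma adjusted p = 0.305). VLDLR, a lipoprotein receptor, differed by 0.17 (limma adjusted p = 0.692). APOC2, the cofactor of the enzyme, was not analysed here.

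Of the 23 genes of fatty acid transport and binding, 17 were measured, CD36 not among them. Between late regressed and mid-late arrays 1 rose, 2 fell and 14 were not called (median 0.03). The called share was 17.6%, against 7.87% of all genes called higher and 5.56% lower. FABP5, a cytosolic fatty acid binding protein, rose by 2.44 (SE 0.60, limma adjusted p = 0.0295). It read 7.07, 7.96, 8.56 and 8.45 in mid-late arrays, 8.76, 8.91, 9.05 and 8.89 in late functional arrays and 8.83, 11.46, 11.97 and 9.51 in late regressed arrays. Late regressed arrays 2 and 3 were the highest here too, and all late regressed arrays lay above all mid-late arrays. Without arrays 2 and 3 the difference was 1.16 and not called (limma adjusted p = 0.104). The call was also lost without mid-late array 1 or 2 or without either of those arrays alone, where the adjusted p reached 0.0802.

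FABP3, the binding protein best known from heart and muscle, went the other way and fell by 1.66 (SE 0.36, limma adjusted p = 0.0187), from 6.62 to 7.72 in mid-late arrays to 5.09 to 6.04 in late regressed arrays. The call was lost without mid-late array 1 or 2 (highest adjusted p 0.0549). FABP1 fell by 0.34 at a level below that of the NC probe sets. FABP4, a binding protein of adipocytes and macrophages, read 4.62, 6.23, 7.43 and 4.83 in late regressed arrays and up to 8.45 on late functional array 4, with a difference of 0.92 (limma adjusted p = 0.511). ACSL1, which activates fatty acids to acyl-CoA, read 7.31, 8.70, 9.12 and 6.72 in late regressed arrays and differed from mid-late arrays by 0.46 (limma adjusted p = 0.536). With late regressed arrays 2 and 3 left out, 0 of the 17 genes were called by limma.

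Genes that store, release, burn and build fatty acids were next compared between late regressed and mid-late arrays. Of all genes, 7.87% were called higher and 5.56% lower in that contrast. Of 18 measured of 27 listed genes of triglyceride synthesis and lipid droplets, 1 fell, FITM2 (-0.40, limma adjusted p = 0.0453), and 17 were not called (median -0.10). PLIN2, the droplet coat protein, was not analysed here. Of 7 measured of 10 lipolysis genes limma called 0 (median -0.29), the largest differences being -1.08 for ABHD6 (adjusted p = 0.124) and 1.07 for MGLL (adjusted p = 0.0575), both monoacylglycerol lipases. FITM2 kept its call in 3 of the 12 fits that left out 1 array, and lost it without late regressed arrays 2 and 3 together (limma adjusted p = 0.174). Among lipolysis genes calls were gained without late regressed array 1 by ABHD6 (adjusted p = 0.0234), MGLL, ABHD5, LIPA and G0S2, without array 4 by MGLL and without array 2 by G0S2, and DGAT1 and GPAT3 of the storage list gained one without array 1 and LPIN2 one without array 4. Of all 52707 probe sets, limma called 7532 without array 1, 6121 without array 4 and 3746 without array 2. With all 12 arrays it called 5282.

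Of 16 measured of 26 fatty acid oxidation genes, 1 rose and 2 fell (median -0.23). The called share was 18.8% of this list and 12.5% of the synthesis list below, against 7.87% of all genes called higher and 5.56% lower. CPT1A, which admits long-chain fatty acids to mitochondria, rose by 0.77 (limma adjusted p = 0.0178). ACADM, the medium-chain acyl-CoA dehydrogenase, fell by 1.19 (limma adjusted p = 0.0116), and DECR1, an auxiliary enzyme of the pathway, fell by 0.77 (limma adjusted p = 0.0321). DECR1 was called in 7 of the 12 fits that left out 1 array, and CPT1A and ACADM were called in all 12. Without late regressed arrays 2 and 3 no call remained in this list (limma adjusted p = 0.104 for CPT1A, 0.0689 for ACADM and 0.104 for DECR1). Of 16 measured of 20 fatty acid synthesis genes, SREBF1, a transcription factor that drives lipid synthesis genes, rose by 0.59 (limma adjusted p = 0.0134) and ELOVL6, an elongase of saturated fatty acids, fell by 2.16 (SE 0.43, limma adjusted p = 0.0146; list median -0.09). ELOVL6 read 8.66, 6.80, 6.14 and 7.94 in late regressed arrays against 9.21 to 9.76 in mid-late arrays, and its difference was -1.25 without arrays 2 and 3 (limma adjusted p = 0.0328), where SREBF1 was no longer called (limma adjusted p = 0.0803).

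Among the lipid-sensing transcription factors and cofactors, several of which control LPL and CD36 in other tissues, 18 of 21 were measured. Between late regressed and mid-late arrays 2 rose and 0 fell by limma (median 0.16). The called share was 11.1%, against 7.87% of all genes called higher and 5.56% lower. CEBPA, an activator of adipocyte and myeloid genes, rose by 2.14 (SE 0.46, limma adjusted p = 0.0185), from 5.48 to 6.18 in mid-late arrays to 7.20, 8.70, 9.30 and 6.71 in late regressed arrays. It kept its call without late regressed arrays 2 and 3, at 1.12 (limma adjusted p = 0.0288). CEBPD, its relative, rose by 1.36 (limma adjusted p = 0.0162), and lost its call without those arrays, at 0.83 (limma adjusted p = 0.0759). PPARG, the lipid-activated receptor, read 6.94, 7.78, 7.76 and 6.55 in late regressed arrays and differed from mid-late arrays by 0.54 (limma adjusted p = 0.17). NR1H3, the oxysterol receptor LXR alpha, read 6.72, 8.92, 8.62 and 7.18 in late regressed arrays and differed by 1.34 (SE 0.41, limma adjusted p = 0.0576). Leaving out late regressed array 1 or 4 gave NR1H3 a call (lowest adjusted p 0.0105). PPARG was called without array 4 (adjusted p = 0.0378).

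Among the CD36 ligands, signalling partners and other scavenger receptors, 24 of 30 were measured, 4 rose and 2 fell (median 0.23). The called share was 25%, against 7.87% of all genes called higher and 5.56% lower. The rises were in CD9, a tetraspanin (1.46, limma adjusted p = 0.0116), TLR2, a receptor for microbial lipopeptides (1.37, limma adjusted p = 0.011), LYN, a Src family kinase (1.05, limma adjusted p = 0.0464), and ITGA3, an integrin subunit (0.54, limma adjusted p = 0.0486). The falls were in the exchange factors VAV3 (-1.05, limma adjusted p = 0.00906) and VAV2 (-0.33, limma adjusted p = 0.0448). LYN was called in 2, ITGA3 in 1 and VAV2 in 1 of the 12 fits that left out 1 array, and the other 3 genes in all 12. Without late regressed arrays 2 and 3 the fall of VAV3 was the 1 call left in the list (limma adjusted p = 0.0395). THBS1, thrombospondin 1, a ligand of CD36, read 7.21, 8.71, 8.05 and 6.65 in late regressed arrays and differed by 0.81 (limma adjusted p = 0.331). MSR1, another scavenger receptor, was high on late regressed array 3 alone, at 7.19 against 4.53 to 4.57 on the other 3, with a difference of 0.90 (limma adjusted p = 0.231).

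In the other contrasts limma called 0 members of all 8 pathway lists with all 12 arrays. When late regressed arrays 2 and 3 were left out, 11 members in 6 lists were called between late functional and mid-late arrays, namely FURIN, ACSL5, NR1H3, CEBPA, LYN and TLR6 higher and LMF2, FABP6, PNPLA2, ELOVL6 and AGER lower (adjusted p from 0.00704 for CEBPA to 0.0498 for TLR6). Leaving those arrays out, limma called 2417 of all 52707 probe sets in this contrast, 1407 higher and 1010 lower. With all 12 arrays fitted, it called 470 probe sets, and 9844 had an unadjusted p below 0.05. Of all genes, that 12-array fit called 0.593% higher and 0.570% lower in late functional arrays. Of the members named above, FABP6 lay below the NC 95th percentile of 4.75 on every array. The largest differences of late functional minus mid-late means were 1.35 for CEBPA (limma adjusted p = 0.151), -1.32 for FABP3 (0.093) and -1.26 for ELOVL6 (0.149). SDC1 differed by 1.14 (0.123), ACSL5 by 1.05 (0.212), COLEC12, a scavenger receptor, by 1.01 (0.255) and NR1H3 by 1.00 (0.216). GPIHBP1 differed by 0.90, TLR2 by 0.82 and FADS2 by 0.36, and the lipolysis, storage and oxidation lists had at most -0.94 for G0S2, -0.46 for PNPLA2, -0.59 for GPAM, -0.36 for DGAT2, -0.54 for ACADM and 0.27 for ACADS. Between late regressed and late functional arrays the largest were 1.54 for FABP5 (0.347), -1.45 for ANGPTL4 and 1.16 for SDC1 (0.253). The other lists reached 1.00 for THBS2, -0.90 for VAV3, 0.89 for GPAT3, -0.88 for DGAT1, -0.97 for ABHD6, 0.87 for MGLL, -0.85 for DECR1, -0.65 for ACADM, -0.97 for SCD5, -0.89 for ELOVL6, 0.80 for CEBPA, 0.76 for CEBPD and 0.38 for FABP4. With all 12 arrays none of these was called. Without late regressed array 1, limma called ANGPTL4, SDC1 (adjusted p = 0.0359), DGAT1 (0.0188), DECR1 (0.0369), ACADM (0.0325) and VAV3 (0.00929) between late regressed and late functional arrays, and also ABHD5, CPT1A, ECI1, ETFDH and ITGA3 (0.0221 to 0.0491). That fit called 924 of 52707 probe sets in this contrast, against 1 with all 12 arrays.

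**Figure D3:**
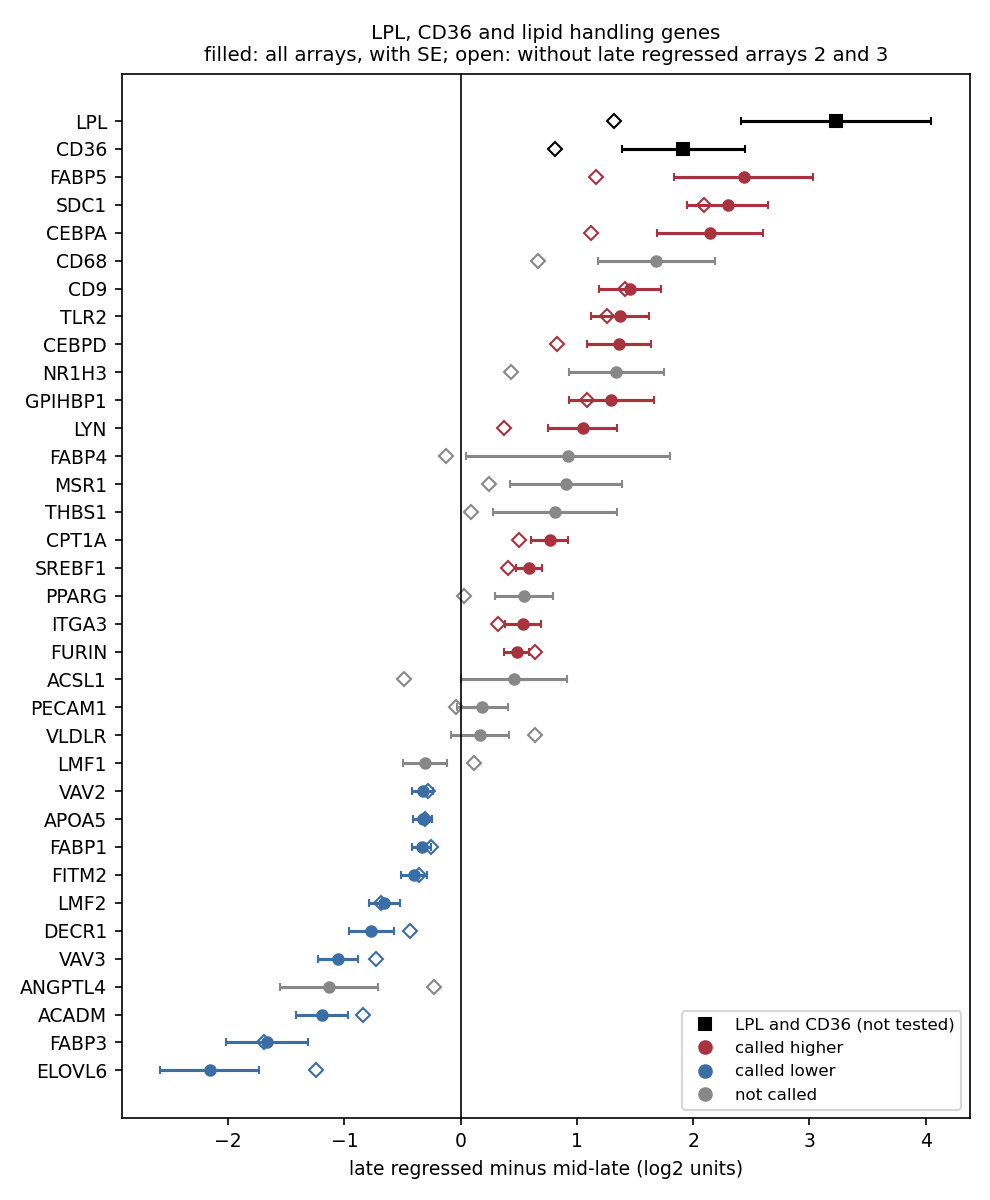
Difference of late regressed minus mid-late means in log2 units (x axis) for LPL, CD36, the panel and the called genes of the lipid lists. Filled symbols with bars give the difference and 1 SE from the limma fit of 12 arrays and open diamonds the difference without late regressed arrays 2 and 3; red and blue mark genes called higher and lower at an adjusted p below 0.05, grey those not called and black squares LPL and CD36, which were not tested here. LPL (3.23), FABP5 (2.44), SDC1 (2.30) and CEBPA (2.14) lie farthest to the right, and ELOVL6 (-2.16) and FABP3 (-1.66) farthest to the left.

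Markers of other cell types moved in part with LPL and CD36, and their part in the result was not tested. The mean of 13 measured lipid-laden macrophage markers was 8.54, 9.73, 10.38 and 8.89 in late regressed arrays, against 7.87 to 8.42 in mid-late and 8.66 to 8.99 in late functional arrays. It was highest on arrays 2 and 3, as LPL and CD36 were. Between late regressed and mid-late arrays 4 of the 13 rose and 9 were not called (median 0.99): FABP5 and CD9 as above, LGALS3, galectin 3, by 2.35 (limma adjusted p = 0.0227), and GPNMB, a lysosomal glycoprotein, by 2.07 (limma adjusted p = 0.0173). The called share was 30.8%, against 7.87% of all genes called higher. LGALS3 lost its call without mid-late array 1 or late regressed array 3. Without late regressed arrays 2 and 3 the list had 0 limma calls.

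Levels of the general macrophage list overlapped between late regressed and late functional glands. The mean of its 15 measured markers was 6.16, 6.49, 7.66 and 7.12 in mid-late arrays, 7.86, 7.77, 7.82 and 7.92 in late functional arrays and 7.52, 7.66, 8.67 and 7.14 in late regressed arrays. It was highest on late regressed array 3, and every mid-late array lay below every late functional array. With late regressed arrays 2 and 3 set aside, limma called 4 of these markers (CD68, CSF1R, AIF1 and CYBB) and 3 of the lipid-laden list (GPNMB, APOE and CTSL) higher in late functional arrays compared with mid-late arrays. In that fit and contrast 2417 of 52707 probe sets were called, 1407 of them higher. Between late regressed and mid-late arrays, with all 12 fitted, CYBB, a subunit of the phagocyte oxidase, was the 1 macrophage marker called. That was 6.67% of the list, against 7.87% of all genes called higher. CYBB was higher by 2.56 (limma adjusted p = 0.0472, called in 2 of 12 fits without 1 array), and read 7.33, 10.30, 10.87 and 7.27 in late regressed arrays. CD68, a lysosomal protein of macrophages, read 8.21, 9.71, 10.75 and 8.18 in late regressed arrays (difference 1.68, limma adjusted p = 0.0549, called without late regressed array 1 or 4 at a lowest adjusted p of 0.0238). The complement gene C1QA was lowest among them on array 2, at 10.02, 5.73, 8.76 and 9.03. ITGAM was at or below 4.75 on all arrays.

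Adipocyte and platelet markers, the other known sources of these transcripts, were mostly low. The mean of 9 adipocyte markers was 4.98 to 5.04 in mid-late, 4.88 to 5.46 in late functional and 5.09, 5.67, 5.66 and 4.91 in late regressed arrays. It was thus highest on late regressed arrays 2 and 3, as LPL and CD36 were, with CIDEA, PCK1, GPD1 and THRSP at or below 4.75 on all arrays and none called with all 12 arrays. ADIPOQ, the adipocyte hormone adiponectin, ran from 6.06 to 6.53 over all arrays. The mean of 8 platelet markers was 4.92, 5.42, 4.76 and 4.72 in late regressed arrays, and the platelet chemokine genes PPBP (7.15) and PF4 (7.03) were highest on array 2. SELP, an adhesion receptor of platelets and endothelium, was the 1 called platelet marker (0.87, limma adjusted p = 0.0154).

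Endothelial markers lay between 7.92 and 8.29 on all arrays as a mean of 13 genes, of which 4 rose between late regressed and mid-late arrays. They were GPIHBP1, TEK (0.89, limma adjusted p = 0.0248), CLDN5 (0.70, limma adjusted p = 0.00907) and ERG (0.53, limma adjusted p = 0.0144), while PECAM1 differed by 0.19 (limma adjusted p = 0.608). Of 10 steroidogenic markers 5 fell, the largest falls being in MRAP (-3.30, limma adjusted p = 0.0108), HSD3B2 (-3.11, limma adjusted p = 0.00548), CYP19A1 (-3.09, limma adjusted p = 0.0137) and FDXR (-1.66, limma adjusted p = 0.0354). With all 12 arrays, HSD3B2 and GSTA1 were also the 2 members of any list called in late functional against mid-late arrays (differences of -1.69, limma adjusted p = 0.0435, and -0.79, limma adjusted p = 0.0327). These calls stood in 2 and 4 of the 12 fits that left out 1 array (highest adjusted p 0.122 and 0.108). Of 9 fibroblast markers 4 rose, FBLN1 by 1.74 (limma adjusted p = 0.00933), COL14A1 by 1.33 (0.0445), DPT by 1.29 (0.041) and DCN by 0.93 (0.0451). The called share between late regressed and mid-late arrays was 30.8% of endothelial, 50% of steroidogenic and 44.4% of fibroblast markers. It was 12.5% of platelet and 16.7% of smooth muscle and pericyte markers. Of all genes, 7.87% were called higher and 5.56% lower. The marker lists too were chosen with earlier results of these data known, so these counts are descriptions and not independent tests. Of 6 smooth muscle and pericyte markers MCAM fell by 0.88 (0.0434), and limma called none of 4 erythroid and 3 T and NK cell markers. Of the marker calls between late regressed and mid-late arrays, TEK stood in 9, DPT in 5, FDXR in 4, COL14A1 and MCAM in 3 and DCN in 1 of the 12 fits that left out 1 array, and CLDN5, ERG, SELP, MRAP, HSD3B2, CYP19A1, GSTA1 and FBLN1 in all 12. Without late regressed arrays 2 and 3 together, the calls left were CLDN5 of the endothelial, MRAP, HSD3B2 and CYP19A1 of the steroidogenic and FBLN1 of the fibroblast markers, and SELP and MCAM were no longer called.

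**Figure D4:**
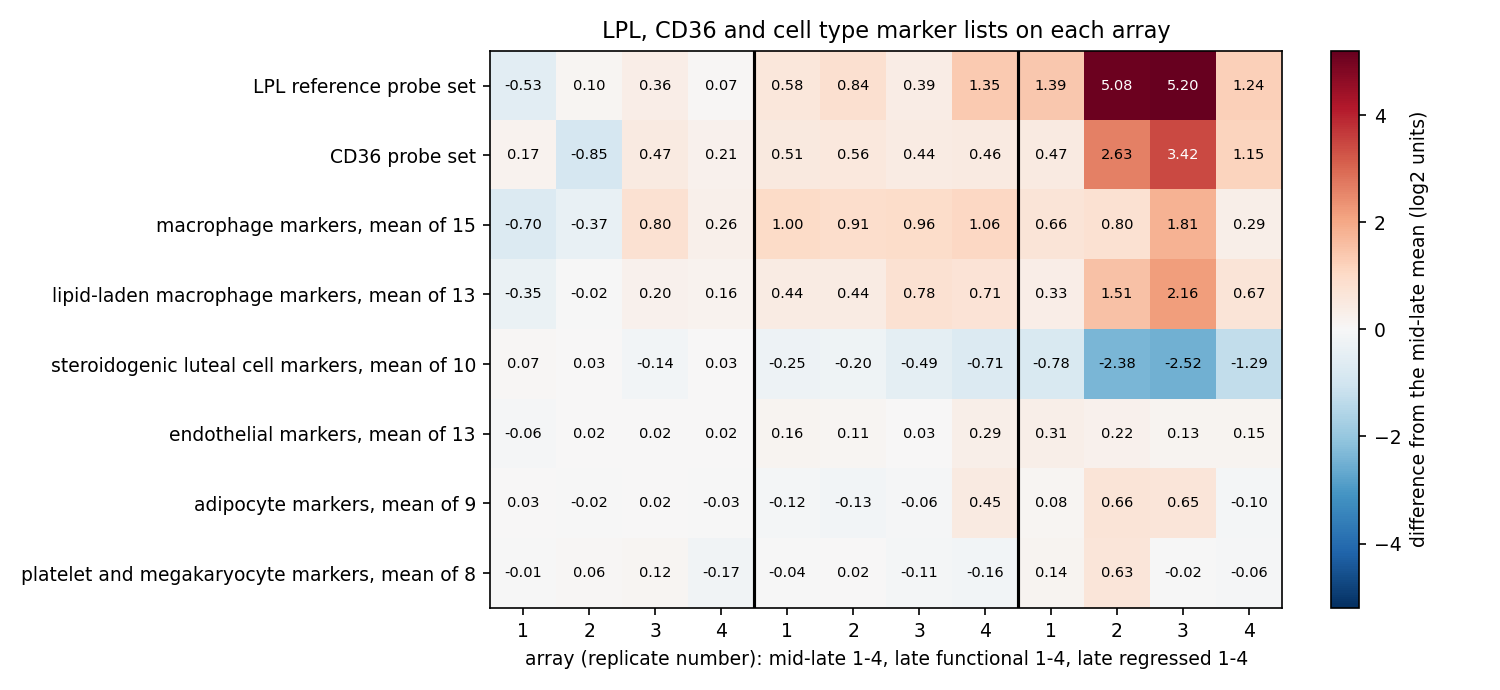
Colour and printed number give the log2 difference from the mid-late mean of LPL, CD36 and the mean of 6 marker lists (rows) on each of the 12 arrays (columns, by group), with red above and blue below that mean. LPL lay 5.08 and 5.20 above the mid-late mean on late regressed arrays 2 and 3 and CD36 lay 2.63 and 3.42 above it, arrays on which the lipid-laden macrophage list was highest and the steroidogenic list lowest.

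The genes whose values most resembled those of LPL over the 12 arrays, by Pearson's r, were RAB7A (0.99), ZFYVE26, CD83, LRRC39, KBTBD8 and SETDB2 (0.98 each). RAB7A encodes a small GTPase of late endosomes, and CD83 a surface protein of mature dendritic cells. CD83 read 7.08, 9.39, 10.13 and 7.47 in late regressed arrays. Over the 10 arrays other than late regressed arrays 2 and 3, r was 0.93 for RAB7A, 0.87 for ZFYVE26 and CD83, 0.82 for KBTBD8, 0.78 for LRRC39 and 0.73 for SETDB2. On those arrays LRRC39 read at most 3.75 and KBTBD8 at most 3.47, below the NC 95th percentile of 4.75. An r of 0.9 or more was reached by 364 of 12992 genes, or 2.80%, and by 70 over those 10 arrays, so the likeness rests largely on 2 glands. CD36 ranked 156 in likeness to LPL.

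For CD36 the 6 most similar genes were CYP1B1 (0.98), MTIF2, DENND4C and PMAIP1 (0.97 each) and ZNRF1 and NCOA4 (0.96 each). CYP1B1, a cytochrome P450 that hydroxylates estrogens, read 6.23, 8.94, 9.73 and 7.12 in late regressed arrays, in the same order as CD36. Over the 10 other arrays r was 0.89 for CYP1B1 and ZNRF1, 0.82 for NCOA4, 0.81 for DENND4C, 0.78 for MTIF2 and 0.76 for PMAIP1. PMAIP1 read 3.40 to 4.51 on those arrays, below the NC 95th percentile of 4.75. An r of 0.9 or more was reached by 222 genes, or 1.71%, and by 15 over those 10 arrays. LPL ranked 76 in likeness to CD36. No gene was on both lists of 6.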

How the data were processed

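Corpora lutea of 12 macaques were profiled on Affymetrix rhesus arrays with 1 colour. The authors deposited log2 values, 1 per probe set and array, made with RMA per the submitters' processing notes. Settings, scan dates and batches: not given in the sources used here. RMA usually equalises the distributions of arrays, which hides any shift in total RNA content.

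The table holds 52865 probe sets, and 158 array controls were left out. Gene symbols came from the platform annotation: 24956 probe sets had 1 symbol, 361 several and 27390 none. Entrez IDs of 24616 probe sets were found in RefSeq's table for T2T-MMU8v2.0, which altered 0 symbols. The brightest probe set on average stood for each gene. A set of 674 probe sets with the prefix NC, of unstated target, marked low signal.

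All 52707 remaining probe sets were fitted with limma 3.58.1 in R 4.3.3 (3 groups, 1 fit, eBayes), with Benjamini-Hochberg adjustment over all of them. The fit was tested on simulated data. The p-values rest on the spread between the glands sampled, pooled over all 3 groups. LPL, CD36, 8 pathway lists and 10 marker lists were chosen with earlier results of these data known. Named genes are every LPL and CD36 probe set, a fixed panel of 16 genes, up to 4 called members of each list with the largest differences (for pathway lists, the 2 largest where none was called), and the 6 genes most correlated with LPL and with CD36 over the 12 arrays. Alternatives were signal filtering, other scalings, fits of 2 groups, array weights, covariates, a different variance prior, other LPL probe sets, a replicate block and fits without arrays.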

Additional observations from a re-analysis of the deposited data

Results flagged for a closer look

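In each group of 4 arrays, the panel genes and the LPL and CD36 probe sets were searched for 1 array whose gap to its neighbour was large against the range of the group. Of 54 groups searched, 6 held such an array, and chance gives about 5%. None of them was in LPL or CD36. The rule looks for 1 array apart from its neighbour, so it cannot flag a pair of high arrays that lie close together. On the brightest LPL probe set the late regressed arrays read 6.81, 6.96, 10.65 and 10.77, in rising order. The search therefore says nothing about that split. ANGPTL4 on mid-late array 1 read 9.61, below the next value of 10.36. VLDLR on late functional array 4 read 7.02, above 6.31, and FABP4 on the same array read 8.45, above 4.61. NR1H3 on mid-late array 3 read 6.85, above 6.43. MSR1 on late regressed array 3 read 7.19, above 4.57. PECAM1 on mid-late array 1 read 9.78, below 10.17.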

How the results depend on the processing

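The means of LPL and CD36 were higher in late regressed than in mid-late arrays under every alternative run. Both genes were selected on this contrast and the alternatives reuse the same arrays, so the shared sign is a description only. The size of the difference varied, and some of these differences were smaller than their SE. The LPL difference of 3.23 became 1.32 without late regressed arrays 2 and 3, and 1.12 (SE 1.35) when the NC mean entered the fit as covariate. It was 1.72 over the mean of its probe sets, 0.66 (SE 0.20) on MmugDNA.25504.1.S1_at and 0.10 (SE 0.12) on MmugDNA.6198.1.S1_at. The CD36 difference of 1.92 became 0.54 (SE 0.87) with that covariate and 0.81 without those arrays. Leaving out 1 array gave 2.57 to 3.89 for LPL and 1.41 to 2.40 for CD36. For late functional minus mid-late arrays the covariate reversed the sign of both, LPL from 0.79 to -0.99 (SE 1.21) and CD36 from 0.49 to -0.67 (SE 0.78). The NC mean was higher on every mid-late array than on any late array. That fit therefore cannot separate it well from the group difference, and the reversed signs decide nothing. Single arrays left out gave 0.60 to 0.92 for LPL and 0.21 to 0.65 for CD36. For late regressed minus late functional arrays LPL was 2.44, -0.038 on MmugDNA.6198.1.S1_at, and 1.78 to 3.10 without single arrays, and CD36 was 0.92 to 1.91. No alternative made a limma call for either gene in these contrasts, with adjusted p from 0.0645 to 0.919 and 0.0726 to 0.954 for LPL and 0.229 to 0.914 and 0.0597 to 0.932 for CD36. Limma calls between late regressed and mid-late arrays numbered 5282, then 1620 with only these groups, 2839 with array weights, 0 with the NC covariate, 975 without late regressed arrays 2 and 3, and 2050 to 7532 without single arrays. Between late functional and mid-late arrays they numbered 470, then 107 with the signal filter, 2682 with only these groups, 3106 with weights, 883 with the 3′ to 5′ covariate, 0 with the NC covariate, 2417 without those arrays and 4 to 1008 without single arrays. Between late regressed and late functional arrays the 1 call became 10 with the signal filter, 2 with median centring, 5 with renewed quantile normalization, 0 with only these groups, 11 with weights, 0 with the 3′ to 5′ covariate, 5 with the NC covariate, 15 with a trended robust prior, 0 without those arrays and 0 to 924 without single arrays. Replicate numbers did not appear to pair the samples (same-number correlations -0.12 to 0.30). As a replicate block they left the differences as they were and gave 4 late functional calls and 0 between late regressed and late functional arrays. In both other groups at once, 2 of 12 arrays correlated best with their own number. The causes were not tested. With 4 glands a group and no batch information, differences of the size of the intervals above cannot be resolved.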
